A study of Mus musculus with 2 samples.

Results

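The genes described here are 10 members of the WNT and R-spondin pathway, chosen by symbol among the 31057 genes of the deposited count matrices: the ligands Wnt4, Wnt6 and Wnt5a, the R-spondin Rspo1, the R-spondin receptors Lgr4 and Lgr5, the membrane ubiquitin ligases Znrf3 and Rnf43, and Axin2 and Lef1, which WNT signalling switches on in many tissues. All 10 symbols matched 1 gene each. Their transcripts were counted in single cells from ovaries of CD1 mice at postnatal day 2, in 2 libraries that each held 6 ovaries pooled from 3 pups of 1 pregnant female. The mice carried no genetic change and received no treatment, so the comparisons run between cell types within the ovary, and each library counted as 1 sample (n = 2). Ovaries were dissociated with collagenase IV and Accumax. Libraries were prepared with the droplet-based Chromium 3′ chemistry, which counts unique molecular identifiers (UMIs), each marking 1 captured RNA molecule.

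WNT proteins are secreted, lipid-modified signals that bind Frizzled and Lrp receptors on nearby cells and, in the canonical branch, keep beta-catenin from being degraded so that it can act with transcription factors such as LEF1. ZNRF3 and RNF43 remove Frizzled receptors from the cell surface. R-spondins, bound to LGR receptors, take these ligases away and so raise the response of a cell to WNT. In the mouse ovary Rspo1 and Wnt4 are known for their part in female sex determination, and Lgr5 is known as a marker of the ovarian surface epithelium around birth.

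Promoter windows of 250 bases before and 50 bases after the start site were found in the RefSeq set (GRCm38.p6) for 7 of the 10 genes, in 11 windows. Wnt5a, Lgr5 and Znrf3 had no entry. The upstream part of 2 of the windows is shown because Axin2 and Lef1 are the pathway's response genes, and both were lower in the same granulosa-like clusters described below. Capitals mark letters of the TCF/LEF recognition motif (CTTTG followed by AA, AT, TA or TT, searched on both strands). The Axin2 sequence is chr11:108920099-108920348, plus strand, and holds none of them. The Lef1 sequence is chr3:131156044-131156293, plus strand, before a start site inside the gene as annotated by GENCODE. It holds CTTTGTA on the minus strand, its first base 147 bases before the start. It is the only Lef1 window with the motif. The other Lef1 windows, which begin at 131110047, 131110073 and 131112541 of chr3, hold none and are not shown.
Axin2: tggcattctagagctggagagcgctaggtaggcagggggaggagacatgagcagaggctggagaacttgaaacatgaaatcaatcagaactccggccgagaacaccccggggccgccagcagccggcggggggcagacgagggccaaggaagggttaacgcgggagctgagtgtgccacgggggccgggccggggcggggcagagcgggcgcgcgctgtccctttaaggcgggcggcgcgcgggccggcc
Lef1: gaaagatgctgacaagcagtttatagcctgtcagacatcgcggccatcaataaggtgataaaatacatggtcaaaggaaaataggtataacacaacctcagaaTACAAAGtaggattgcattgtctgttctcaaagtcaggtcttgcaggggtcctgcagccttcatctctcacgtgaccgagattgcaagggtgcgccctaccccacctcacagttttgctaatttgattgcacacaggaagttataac
Of the 11 windows of these 7 genes, 1 held the motif, against 16.9% of all 32851 windows of this length. A match of letters is no evidence of binding, and the remaining windows say only that these letters were not there.

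After removal of cells with under 500 genes, over 10% mitochondrial UMIs or a doublet score above the threshold, 3636 and 4371 cells of replicate 1 and replicate 2 remained. The 2 libraries held 54471790 and 59074480 UMIs in all and shared 21 cell barcodes. Cells were clustered without the pathway's genes, and clusters were named from markers, giving 1657 and 615 granulosa-like cells, 187 and 295 mesothelial-like cells (the type that covers the ovary), 1397 and 2501 interstitial-like cells and 237 and 675 germ-like cells. Each of the 4 types expressed its own defining markers, as naming the clusters by these markers fixes. All 7 mesothelial markers summed to 1651 and 1539 counts per 1000000 UMIs (CPM) in mesothelial-like cells and to 2.64 and 3.59 in interstitial-like cells. Mesothelial-like cells also held the 7 interstitial markers at 888 and 1020 CPM, against 11920 and 11282 in interstitial-like cells. Germ-like cells of replicate 2 held the 9 granulosa markers at 124 CPM, against 16.6 in replicate 1, and different clusters held most germ-like cells of each library. Median depth ranged from 5005 to 12235 UMIs per cell in the 3 somatic types and was 76717 and 48519 in germ-like cells.

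Levels are given as CPM, counts scaled to the summed UMIs of the cell type in a library, first for replicate 1 and then for replicate 2. A gene was called in a cell type when its fitted level was at least 2 times higher or lower than the mean of the log2 levels of the other 3 types, which weighs a low type as much as a high one, with an adjusted p under 0.05 (edgeR's quasi-likelihood test over all 15360 genes tested, Benjamini-Hochberg adjustment). In mesothelial-like cells 7 of 10 were called higher (all but Wnt4, Lgr4 and Znrf3), against 13.5% of all genes tested. In granulosa-like cells 5 of 10 were called higher, Wnt6, Rspo1, Lgr5, Rnf43 and Lef1, against 16.1% of all genes. Lgr5 was above the other types there only on this scale. Against the summed UMIs of all other named cells, which hold the mesothelial-like ones, its log2 fold change was -0.38 (edgeR adjusted p = 0.439). Against that summed reference 6 of the 10 were called higher in each of these 2 types. Of all genes tested against it, 2685 of 15832 were higher in granulosa-like cells and 1702 of 15638 in mesothelial-like cells. Interstitial-like cells were called higher for 3 of 10, Wnt4, Wnt5a and Lgr4 (16.2% of all genes), and lower for the 6 genes Wnt6, Rspo1, Lgr5, Rnf43, Axin2 and Lef1 (15.3% of all genes). Of these lower calls, those of Lef1 (-0.65, edgeR adjusted p = 0.416) and Rnf43 (-3.15, edgeR adjusted p close to 1) were lost when cells were thinned to 2000 UMIs, and that of Axin2 was lost against the summed reference (-0.87). In germ-like cells none of the 10 was higher, where 30.8% of all genes were, and all 10 were lower, where 27.4% of all genes were. Against interstitial-like cells alone, only Wnt4, Wnt5a, Lgr4 and Znrf3 were called lower in germ-like cells, where 4109 of 15360 genes were. Wnt6, Rspo1, Lgr5, Rnf43, Axin2 and Lef1 were not called in that pair. With the library as a replicate block, Lef1 was called there too, higher in interstitial-like cells (1.14, edgeR adjusted p = 0.0306). Without a filter on low counts and under the per-cell gate it was also called. With 2 libraries the p-values rest on the spread between these 2 pools of pups, and the cells were sorted into types by other genes of the same libraries, which the p-values do not take into account.

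**Figure D1:**
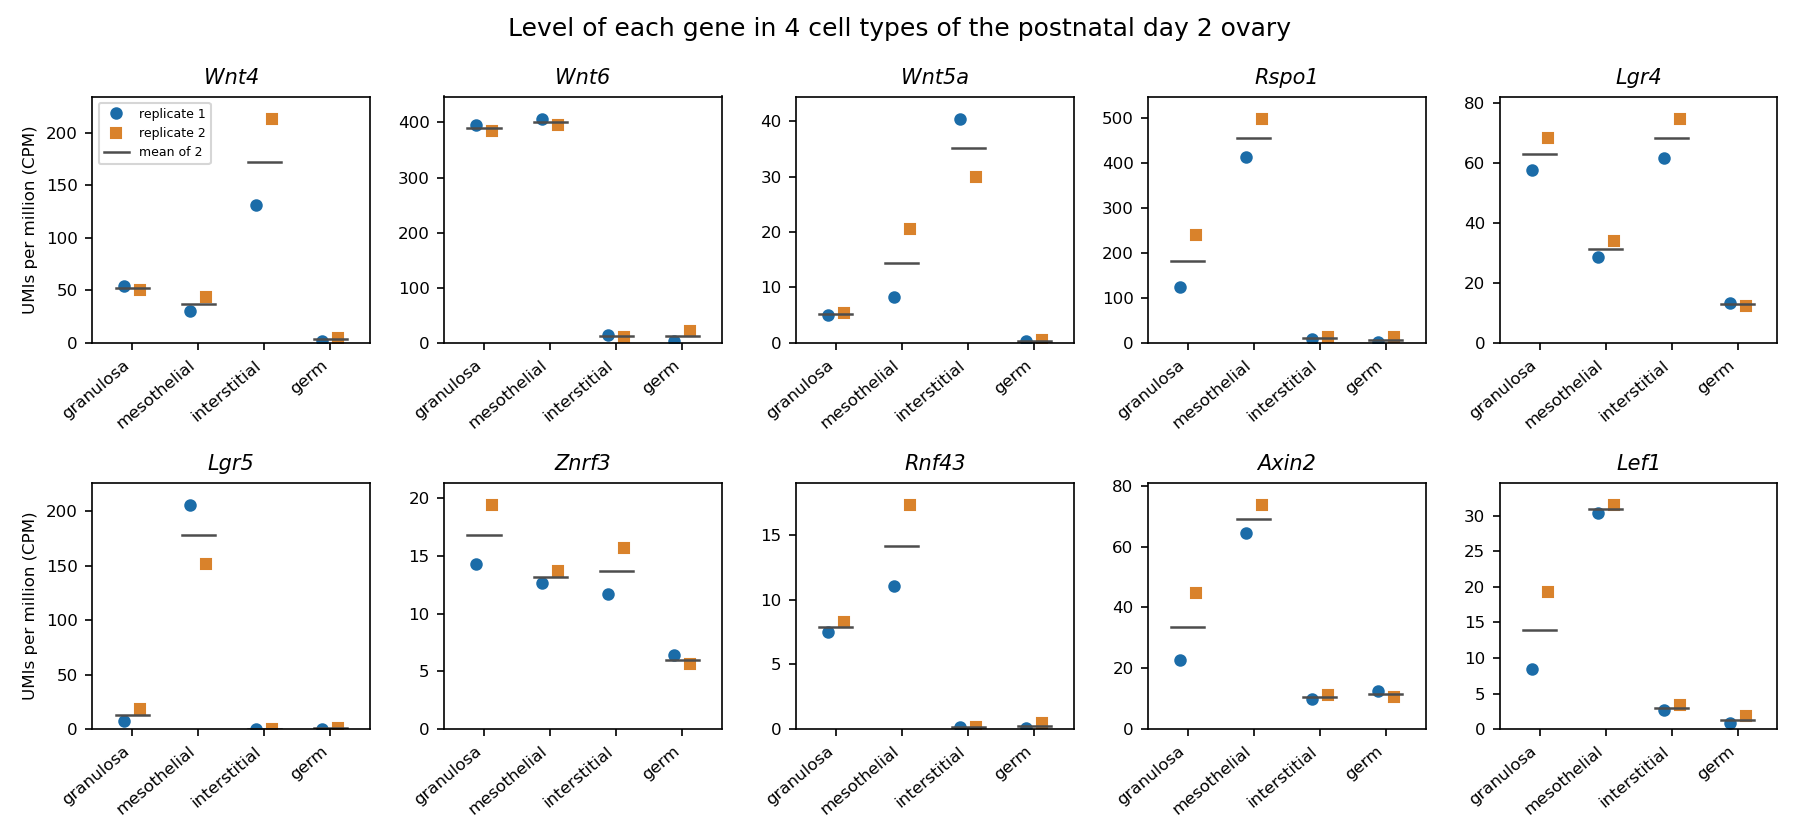
Level (CPM, linear axes that start at 0) of the 10 genes in granulosa-like, mesothelial-like, interstitial-like and germ-like cells. Each point is the sum over the cells of 1 library and each bar the mean of the 2. Lgr5 stands at 206 and 151 CPM in mesothelial-like cells and at no more than 18.1 CPM elsewhere, while Wnt6 is level between granulosa-like and mesothelial-like cells.

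The 3 WNT ligands divided between the cell types. Wnt6 stood at 396 and 385 CPM in granulosa-like cells, at 406 and 395 CPM in mesothelial-like cells, at 14.0 and 11.5 CPM in interstitial-like cells and at 2.62 and 20.8 CPM in germ-like cells. The levels of granulosa-like and mesothelial-like cells lay close together and far above the others, with no overlap. The log2 fold change against the mean of the other types was 3.21 ± 0.51 (SE, edgeR adjusted p = 0.00175) in granulosa-like cells and 3.36 ± 0.51 (edgeR adjusted p = 0.0018) in mesothelial-like cells, and between these 2 types it was -0.11 ± 0.68 (edgeR adjusted p = 0.944). The higher germ-like value was that of replicate 2, the library in which granulosa markers were also higher in germ-like cells, and their part in it was not tested.

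Wnt4, which drives ovarian differentiation in the embryo, had the opposite pattern. It reached 131 and 213 CPM in interstitial-like cells, 53.7 and 50.3 CPM in granulosa-like cells, 30.6 and 43.9 CPM in mesothelial-like cells and 1.64 and 5.05 CPM in germ-like cells. Both interstitial-like values were above every other. Those of granulosa-like cells lay above those of mesothelial-like cells, a difference that was not called (log2 fold change 0.39 ± 0.44, edgeR adjusted p = 0.598). The interstitial-like log2 fold change was 3.18 ± 0.32 (edgeR adjusted p = 0.000122). Within that type, Wnt4 was lowest in cluster 11, which was led by Pdlim3 and Kcnip1, at 22.7 and 113 CPM, and was higher in replicate 2 than in replicate 1 in all 8 interstitial-like clusters.

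Wnt5a, a ligand mostly known for signalling without beta-catenin, was at 40.4 and 29.9 CPM in interstitial-like cells, 8.21 and 20.6 CPM in mesothelial-like cells, and lower in the other two, with 4.98 and 5.38 CPM for granulosa-like and 0.366 and 0.436 CPM for germ-like cells. The types did not overlap in that order. The log2 fold change was 3.47 ± 0.27 (edgeR adjusted p = 3.79e-05) in interstitial-like cells and 1.83 ± 0.33 (edgeR adjusted p = 0.00362) in mesothelial-like cells. The mesothelial-like value rested on 26 and 93 UMIs, and without replicate 2 the log2 fold change there was 0.997, just under the size a call requires. The call there was also lost in thinned cells (2.09, edgeR adjusted p = 0.148) and against the summed reference (0.70, edgeR adjusted p = 0.171).

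Rspo1 was highest in mesothelial-like cells. Its level was 412 and 497 CPM there, 123 and 239 CPM in granulosa-like cells, 8.69 and 12.7 CPM in interstitial-like cells and 2.50 and 12.1 CPM in germ-like cells. The first 2 types stood apart from the others and from each other. The log2 fold change was 4.23 ± 0.45 (edgeR adjusted p = 0.000392) in mesothelial-like cells and 2.35 ± 0.46 (edgeR adjusted p = 0.00424) in granulosa-like cells. Between these 2 types the granulosa-like level was lower by a log2 value of -1.40 ± 0.61, which was not called (edgeR adjusted p = 0.153). With the library as a replicate block the same difference was called (-1.51, edgeR adjusted p = 0.0374), as it was in thinned cells (-1.30, edgeR adjusted p = 0.00958).

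The type that held most Rspo1 molecules differed between the libraries, while those of Wnt6, Wnt4 and Wnt5a did not. Of the Rspo1 UMIs of all named cells, granulosa-like cells held 62.7% and 39.5% and mesothelial-like cells 33.8% and 48.6%. Wnt6 UMIs came to 84.0% and 53.5% from granulosa-like and to 13.9% and 32.5% from mesothelial-like cells. Wnt4 UMIs came to 53.1% and 82.0% from interstitial-like cells, and Wnt5a UMIs to 75.7% and 76.0%. These shares follow the cells recovered after dissociation as well as the level per cell.

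When each cell was thinned to 2000 UMIs so that depth did not set detection, Rspo1 was seen in 60.4% (exact 95% interval 53.0 to 67.5) and 57.3% (51.4 to 63.1) of mesothelial-like cells, against 1.80% (1.17 to 2.64) and 2.55% (1.97 to 3.26) of interstitial-like cells. Before thinning the shares were 95.2% and 89.8% in mesothelial-like cells and 5.30% and 6.80% in interstitial-like ones. Immune-like cells should lack the gene and had a median depth of 8919 and 6499 UMIs, and among them 0 of 27 thinned cells (upper limit 12.8%) and 5.17% of 58 (1.08 to 14.4) held a Rspo1 UMI. So few immune-like cells set no background below the interstitial-like shares of Rspo1, which are therefore not read as expression. These intervals cover counting error only. Wnt6 and Rspo1 were detected in the same cell in 91.4% and 85.4% of mesothelial-like cells and in 53.5% and 70.7% of granulosa-like cells, without thinning.

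The R-spondin receptors Lgr5 and Lgr4 were ordered differently over the cell types. Lgr5 reached 206 and 151 CPM in mesothelial-like cells, from 651 and 683 UMIs. In granulosa-like cells it was at 7.83 and 18.1 CPM. The clusters of that type differed in Lgr5 level and in their share of its cells in each library, as described below. Interstitial-like cells held only 3 and 6 Lgr5 UMIs in 1397 and 2501 cells, and germ-like cells 2 and 28. No other type came near the mesothelial-like values. The ratio of the mesothelial-like to the interstitial-like level was 702 (exact 95% counting interval 239 to 3412) in replicate 1 and 401 (183 to 1095) in replicate 2. Against the mean of the other types the log2 fold change was 6.98 ± 0.41 (edgeR adjusted p = 4.04e-05), the largest of the 10 genes in mesothelial-like cells. Granulosa-like cells were below mesothelial-like cells by a log2 value of -3.91 ± 0.51 (edgeR adjusted p = 0.00234). Of thinned mesothelial-like cells, 32.6% (26.0 to 39.8) and 21.2% (16.6 to 26.4) held a Lgr5 UMI, against 0.144% and 0.0811% of interstitial-like cells.

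Lgr4, the more widely used receptor of the same family, did not follow Lgr5. Interstitial-like cells had 61.7 and 74.7 CPM and granulosa-like cells 57.8 and 68.2 CPM, ranges that overlapped. Mesothelial-like cells had 28.7 and 33.9 CPM and germ-like cells 13.2 and 12.4 CPM, with no overlap between these types. Mesothelial-like cells were below interstitial-like cells (log2 fold change -1.11 ± 0.17, edgeR adjusted p = 0.00198), and the granulosa-like against interstitial-like difference was -0.18 ± 0.16 (edgeR adjusted p = 0.395). Among the interstitial-like clusters, cluster 4, led by Col1a1, Ogn and Tcf21, stood out at 183 and 185 CPM, while the other 7 ranged from 31.8 to 78.0 CPM over both libraries. That cluster was singled out after its values were seen and was given no test.

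Of the receptor ligases, Znrf3 was nearly even over the somatic cells. It was at 14.3 and 19.4 CPM in granulosa-like, 12.6 and 13.7 CPM in mesothelial-like, 11.7 and 15.7 CPM in interstitial-like and 6.40 and 5.66 CPM in germ-like cells. The 3 somatic types overlapped, and germ-like cells lay below them (log2 fold change -1.22 ± 0.20, edgeR adjusted p = 0.000552).

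Rnf43 was at 7.53 and 8.27 CPM in granulosa-like cells and at 11.1 and 17.3 CPM in mesothelial-like cells. Only 2 and 2 Rnf43 UMIs were counted in interstitial-like cells and 1 and 13 in germ-like cells. The granulosa-like and mesothelial-like levels lay apart from the rest. The ratio to the interstitial-like level was 56.6 (exact 95% counting interval 14.5 to 486) and 137 (36.7 to 1153) for mesothelial-like cells, and 38.5 (10.5 to 321) and 65.6 (17.4 to 554) for granulosa-like cells. Rnf43 was thus called higher in granulosa-like cells (3.04 ± 0.41, edgeR adjusted p = 0.000862) and in mesothelial-like cells (4.29 ± 0.42, edgeR adjusted p = 0.000253), and the 2 types were not called different (edgeR adjusted p = 0.191).

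Axin2, a scaffold of the complex that degrades beta-catenin, was at 64.4 and 73.6 CPM in mesothelial-like cells and at 22.7 and 44.6 CPM in granulosa-like cells. It was at 10.1 and 11.3 CPM in interstitial-like and 12.7 and 10.6 CPM in germ-like cells. Mesothelial-like values lay above all others (log2 fold change 2.13 ± 0.22, edgeR adjusted p = 0.000343), those of granulosa-like cells lay between, and the other 2 types overlapped. The granulosa-like level was below the mesothelial-like one (-1.13 ± 0.29, edgeR adjusted p = 0.0301), a call lost when cells were thinned (-1.13, edgeR adjusted p = 0.0803).

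Lef1, a transcription factor partner of beta-catenin, was at 30.3 and 31.5 CPM in mesothelial-like cells and at 8.44 and 19.3 CPM in granulosa-like cells. Interstitial-like cells had 2.64 and 3.40 CPM and germ-like cells 0.792 and 1.82 CPM. The order was the same as for Rspo1, with no overlap between neighbours. The log2 fold change was 3.02 ± 0.35 (edgeR adjusted p = 0.000543) in mesothelial-like and 1.33 ± 0.36 (edgeR adjusted p = 0.0172) in granulosa-like cells, where the call was lost on thinning (1.11, edgeR adjusted p = 0.098).

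**Figure D2:**
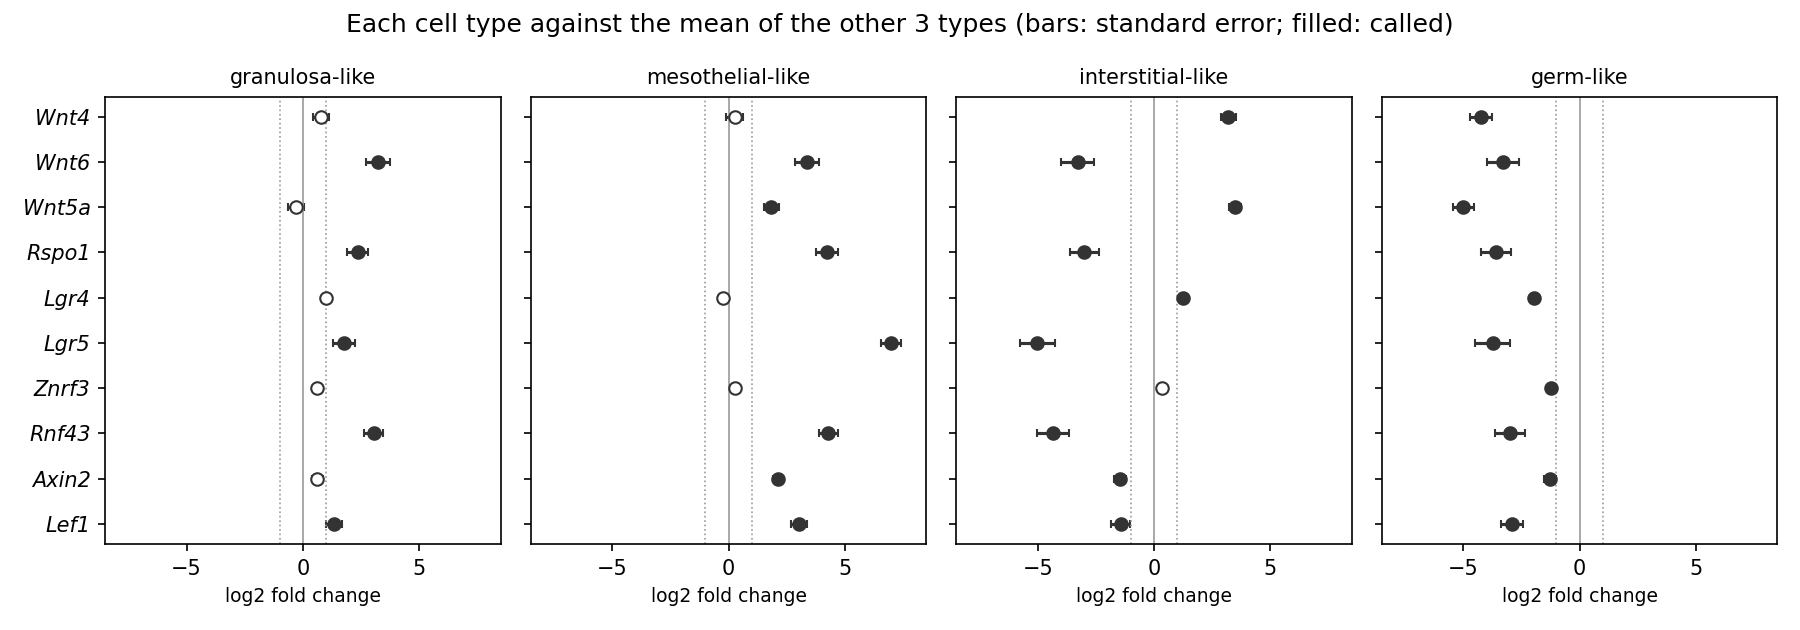
Log2 fold change of each gene in 1 cell type against the mean log2 level of the other 3, with its standard error as bars, from the fit over both libraries. Filled points were called (dotted lines mark a log2 value of 1 in either direction), and every point of the germ-like panel is filled and below 0.

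CPM values are relative to all RNA of a cell, and germ-like cells held far more UMIs than the others. Counted per cell instead, Axin2 came to 0.878 and 0.434 UMIs in a germ-like cell, 1.09 and 1.13 in a mesothelial-like cell, 0.269 and 0.553 in a granulosa-like cell and 0.0737 and 0.0720 in an interstitial-like cell. Germ-like cells therefore held more Axin2 molecules per cell than interstitial-like cells in both libraries, although their CPM was similar. Lgr4 came to 0.916 and 0.505 UMIs per germ-like cell against 0.686 and 0.846 per granulosa-like cell, which overlap. Lgr5 stayed near 0 per germ-like cell (0.00844 and 0.0415).

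Setting pairs of types against each other, 9 of the 10 genes were called between mesothelial-like and interstitial-like cells (22.4% of all genes), 8 between granulosa-like and interstitial-like cells (27.1%) and 3 between granulosa-like and mesothelial-like cells (14.4%). Those 3 were Wnt5a, Lgr5 and Axin2, all lower in granulosa-like cells, of which Wnt5a (-1.60 before and -0.85 after thinning, edgeR adjusted p = 0.496 after) and Axin2 were not called in thinned cells. With the library as a replicate block 5 genes were called between these 2 types, Rspo1 and Lef1 (-1.34, edgeR adjusted p = 0.0218) being added. Znrf3 was the 1 gene not called in the first comparison, and Znrf3 and Lgr4 were the 2 not called in the second.

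The granulosa-like cells were not uniform. They fell into 5 clusters, and in clusters 0 and 2 the level of Amh, a hormone made by granulosa cells of growing follicles, was at least 2 times the geometric mean over the 5 (267 and 96.8 CPM over both libraries). In the others, clusters 1, 3 and 15, it was 32.0, 4.64 and 1.19 CPM. The Amh clusters held 910 and 151 cells and the others 747 and 464. Of the 10 genes, 5 were lower in the Amh clusters, Rspo1, Lgr5, Rnf43, Axin2 and Lef1, where 4.24% of all 12422 genes tested were lower, and 0 were higher, where 4.60% were.

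Axin2 was at 9.21 and 8.41 CPM in the Amh clusters and at 41.7 and 57.7 CPM in the others (log2 fold change -2.46 ± 0.24, edgeR adjusted p = 0.00474). Lef1 was at 2.43 and 1.98 CPM against 16.9 and 25.5 CPM (-3.17 ± 0.35, edgeR adjusted p = 0.00544). Lgr5 was at 3.39 and 3.46 CPM against 14.1 and 23.4 CPM (-2.44 ± 0.36, edgeR adjusted p = 0.0106). For these genes both libraries of the Amh clusters lay below both libraries of the others. Rspo1 was at 79.7 and 75.7 CPM against 185 and 298 CPM (-1.62 ± 0.26, edgeR adjusted p = 0.0124). Rnf43 was at 5.04 and 4.45 CPM against 11 and 9.65 CPM (-1.08 ± 0.27, edgeR adjusted p = 0.0499), close to the threshold and not called by DESeq2 (adjusted p = 0.242). The ligands Wnt4, Wnt6 and Wnt5a, the receptor Lgr4 and the ligase Znrf3 were not called, with log2 fold changes from -0.46 to 0.59 and edgeR adjusted p values from 0.118 to 0.448.

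**Figure D3:**
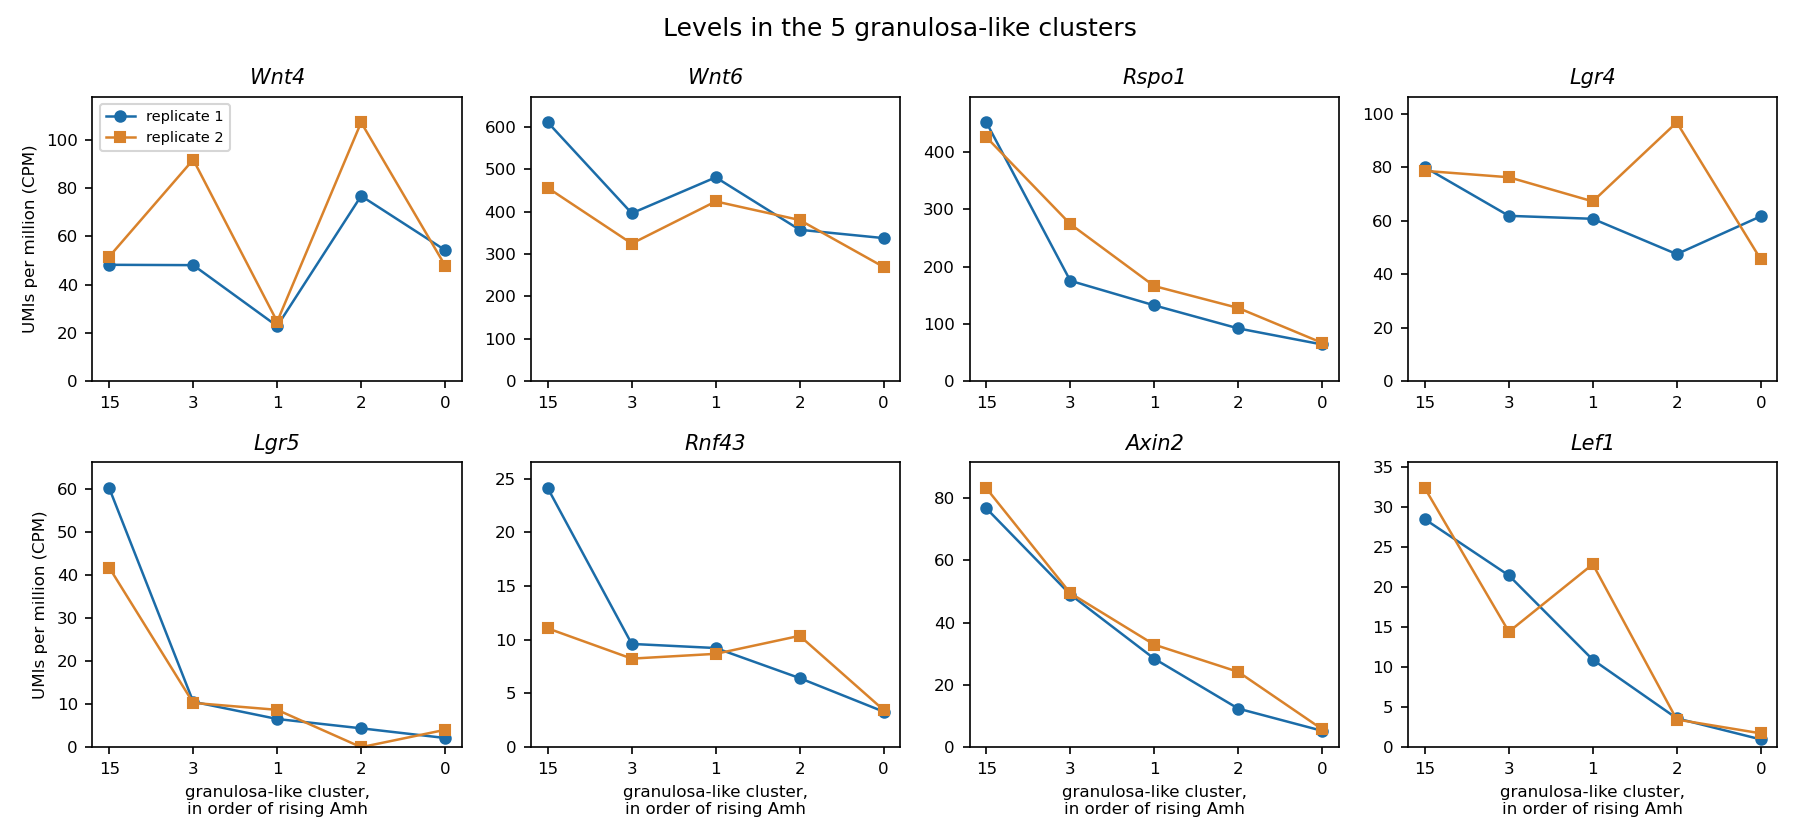
Level (CPM, linear axes that start at 0) of 8 genes in the 5 granulosa-like clusters, ordered from the lowest to the highest Amh level, for each library. Axin2 runs from 76.7 and 83.2 CPM in cluster 15 to 5.25 and 5.77 CPM in cluster 0, and Wnt4 shows no such order. Cluster 2 of replicate 2 holds 18 cells.

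Cluster by cluster, Axin2 and Rspo1 followed the reverse order of Amh. Axin2 was at 76.7 and 83.2 CPM in cluster 15, 49.0 and 49.5 in cluster 3, 28.4 and 32.9 in cluster 1, 12.4 and 24.2 in cluster 2 and 5.25 and 5.77 in cluster 0, so that it was lower at each step in both libraries. Rspo1 was also lower at each step, from 451 and 426 CPM in cluster 15 to 64.2 and 67.0 CPM in cluster 0. In replicate 2 the values of cluster 2 rest on 18 cells. Lgr5 was at 60.3 and 41.8 CPM in cluster 15 and at no more than 10.6 CPM in the other 4. Lef1 went from 28.5 and 32.4 CPM to 0.973 and 1.73 CPM, with cluster 1 above cluster 3 in replicate 2. These cluster values are a description, since the clusters were formed from the same cells. Cluster 15 held 100 and 225 of the 1657 and 615 granulosa-like cells, a larger share in replicate 2. Its part in the differences between the libraries in granulosa-like levels was not tested.

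Other measures moved along the same axis. The 7 mesothelial markers summed to 165 and 114 CPM in cluster 15, which was led by Ly6d, Crygb and Pcp4 and also by Krt18 and Krt8, and to no more than 20.6 CPM in any other granulosa-like cluster. The 10 cell cycle genes summed to 793 and 1179 CPM in the Amh clusters and to 46.5 and 93.8 CPM in the others. The part of either measure in the differences was not tested. Cluster 15 was left out in a comparison added after the data were seen. In it Rspo1 (-1.13, edgeR adjusted p = 0.00503) and Lgr5 (-1.31, edgeR adjusted p = 0.032) were lower in the Amh clusters. So were Axin2 (-2.03, edgeR adjusted p = 0.000417) and Lef1 (-2.88, edgeR adjusted p = 0.00089), and Rnf43 did not pass (-0.86, edgeR adjusted p = 0.102). The cell cycle genes were not dealt with in that comparison. When single granulosa-like cells were instead split by whether they held an Amh or Inhbb UMI after thinning, 0 of the 10 genes were called. In that split edgeR called few genes of any kind, 54 higher and 11 lower of 11951 tested. Axin2 and Lgr4, 2 of the 10, had an unadjusted edgeR p under 0.05, where 1849 of the 11951 genes did. The 5 genes lower in the Amh clusters were still lower, by log2 values of -0.32 to -1.47.

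Part of the mesothelial-like cells were cycling, and these were compared with the rest of the type. A mesothelial-like cell was counted as cycling when UMIs of 2 or more among 10 cell cycle genes were seen in it after thinning to 2000 UMIs, which gave 45 and 98 cycling and 142 and 190 non-cycling cells. Mki67 was at 179 CPM in cycling and 15.9 CPM in non-cycling cells of replicate 1, as the choice of classes fixes. None of the 10 genes was called, where 2.34% of all 10128 genes tested were (edgeR), 235 higher and 2 lower in cycling cells. At an unadjusted edgeR p under 0.05 there were 2 of the 10, Lgr4 and Rspo1, where 1198 of the 10128 genes were. Both classes come from the same libraries. With the library as a replicate block edgeR called 0 of the 10, where it called 285 of the 10128 genes higher and 36 lower. In that fit 3 of the 10, Lgr5, Lgr4 and Rspo1, were at the unadjusted level, where 1791 of the 10128 genes were. DESeq2 called 0 of the 10, where it called 181 of the 10128 genes higher and 1 lower. With DESeq2, 1 of the 10, Rspo1, was at that unadjusted level, where 502 of the 10128 genes were.

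Lgr4 was the gene that differed most. It was at 43.9 and 40.6 CPM in cycling and at 23.2 and 29.9 CPM in non-cycling cells, without overlap (log2 fold change 0.62 ± 0.22, edgeR adjusted p = 0.227). Rspo1 was at 323 and 421 CPM in cycling and 445 and 545 CPM in non-cycling cells (-0.43 ± 0.15, edgeR adjusted p = 0.219). Lgr5 was at 179 and 135 CPM against 215 and 162 CPM (-0.31 ± 0.18, edgeR adjusted p = 0.569). Within each library Rspo1 and Lgr5 were lower and Lgr4 was higher in cycling cells, by less than a call requires. Axin2 (70.0 and 77.7 CPM against 62.4 and 71.3 CPM) and Lef1 (27.3 and 31.3 CPM against 31.4 and 31.7 CPM) differed by 0.13 ± 0.17 and -0.11 ± 0.22 on the log2 scale. Cycling cells were deeper, with medians of 16613 and 14468 UMIs against 11151 and 10025.

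**Figure D4:**
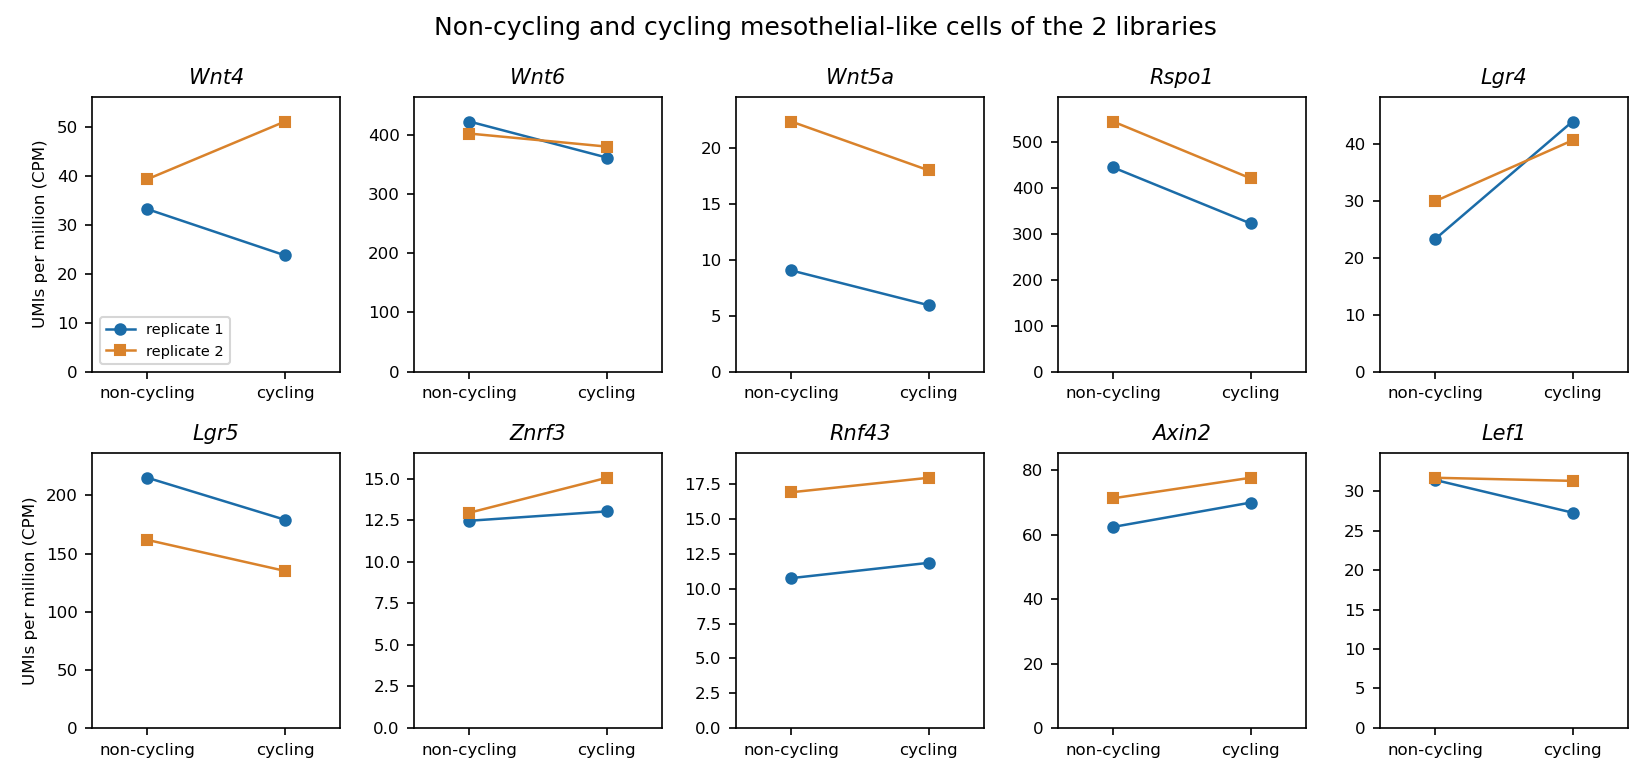
Level (CPM, linear axes that start at 0) of the 10 genes in non-cycling and cycling mesothelial-like cells, each line joining the 2 classes of 1 library. Lgr4 is higher in cycling cells in both libraries and Rspo1 lower in both, Wnt4 is higher in replicate 2 and lower in replicate 1, and none of the 10 was called.

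Beside these 10, the pathway list held 86 other genes, of which 69 could be tested between the types. In mesothelial-like cells 27 of the 69 were called higher and 4 lower, against 13.5% and 8.49% of all genes, with a median log2 fold change of 0.68 beside -0.11 over all genes. In granulosa-like cells 18 were higher and 11 lower (16.1% and 9.64% of all genes), in interstitial-like cells 22 and 10 (16.2% and 15.3%), and in germ-like cells 4 and 29 (30.8% and 27.4%). The list was chosen with earlier results of these data known, and a gene rare elsewhere can pass the filter on low counts through 1 type alone.

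Of 13 target genes tested, 5 of them the members Axin2, Lef1, Lgr5, Znrf3 and Rnf43 already counted above, 8 were higher in mesothelial-like cells and 1 lower (13.5% and 8.49% of all genes), and 5 were higher and 2 lower in granulosa-like cells (16.1% and 9.64%). In interstitial-like cells 2 were higher and 6 lower (16.2% and 15.3%), and in germ-like cells 9 were lower (27.4%). Tnfrsf19, a receptor of the TNF receptor family, was at 166 and 210 CPM in mesothelial-like cells and at no more than 53.3 CPM in any other of the 4 types (log2 fold change 3.25 ± 0.20, edgeR adjusted p = 4.34e-05). Nkd1, an inhibitor of the pathway that WNT induces, was spread over all types, from 72.5 CPM in granulosa-like to 175 CPM in mesothelial-like cells. Sp5, a transcription factor, chosen after its values were seen, was at 61.3 and 66.1 CPM in mesothelial-like and 8.85 and 13.8 CPM in granulosa-like cells, and under 1 CPM in the other 2 types.

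Of 10 WNT ligands tested, the 3 described above included, 7 were higher in mesothelial-like cells (13.5% of all genes), Wnt2, Wnt2b, Wnt5a, Wnt6, Wnt9a, Wnt10a and Wnt10b. The list held 19 ligands, and those with too few UMIs were not tested. In germ-like cells Wnt2b had 0 and 0 UMIs, Wnt10a 0 and 1 and Wnt10b 4 and 6. A gene that is rare elsewhere can pass the filter on low counts through its highest type alone, so the count of 7 is a description only. The call of Wnt5a was lost in thinned cells. These calls rest on fold changes and say nothing of the level, which is not given for those outside the 10 genes. Wnt5b was at 48.6 and 48.7 CPM in interstitial-like cells, above its 21.4 and 17.8 CPM in granulosa-like and 9.16 and 10.2 CPM in mesothelial-like cells. Wls, which carries WNT proteins to the cell surface, was at 102 and 106, 156 and 137, and 128 and 121 CPM in granulosa-like, mesothelial-like and interstitial-like cells and at 1.22 and 6.53 CPM in germ-like cells. Rspo2, another R-spondin, was the 1 R-spondin called higher in germ-like cells, at 24.8 and 16.8 CPM there against at most 2.02 CPM elsewhere (log2 fold change 5.90 ± 0.43, edgeR adjusted p = 6.89e-06).

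The inhibitors differed by type. Sfrp1, a secreted protein that binds WNT ligands, was at 685 and 488 CPM in interstitial-like cells and at no more than 8.65 CPM in the other 3 types (log2 fold change 7.05 ± 0.23, edgeR adjusted p = 9.59e-07). Dkk3 was at 73.4 and 66.0 CPM in interstitial-like cells and at no more than 5.05 CPM elsewhere. Of 9 inhibitors tested, 4 were higher in interstitial-like (16.2% of all genes), 4 in granulosa-like (16.1%) and 3 in mesothelial-like cells (13.5%), and 0 were higher in germ-like cells (30.8%). Of 12 genes that regulate beta-catenin, at most 1 was called higher in any type, where 13.5% to 30.8% of all genes were. Ctnnb1, which encodes beta-catenin, was at 191 and 184, 200 and 196, and 203 and 170 CPM in granulosa-like, mesothelial-like and interstitial-like cells. It was called lower in germ-like cells, at 68.2 and 60.7 CPM (log2 fold change -1.52 ± 0.12, edgeR adjusted p = 1.04e-05), where 27.4% of all genes were. In cycling mesothelial-like cells 1 of 49 other pathway genes was called, where 2.34% of all genes tested were. It was the inhibitor Sfrp5, higher by a log2 value of 2.47 ± 0.47 (edgeR adjusted p = 0.00715).

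The genes with the most similar pattern were found by Pearson correlation of log2(CPM + 1) over 38 cluster and library sums among 13086 genes, as a description, since the sums share libraries and depth. Wnt4 was most like Fzd7 (0.931), Wnt6 like Gstm2 (0.968) and Wnt5a like 6030419C18Rik (0.891). Rspo1 was most like Lgals7 (0.937), with Wnt6 as the third gene (0.912). Lgr5 was most like Gata3 (0.944), Lgr4 like Stxbp6 (0.876), Znrf3 like Tbl1x (0.897), Rnf43 like Dsc2 (0.947), Axin2 like Gm45871 (0.801) and Lef1 like Itga3 (0.880).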

How the data were processed

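Single-cell RNA was counted in 2 libraries of postnatal day 2 ovaries. The deposited values are UMI counts, whole and not normalized, for every gene in every called cell. Per the labels the authors used Cell Ranger 3.0.2 and GRCm38. The labels name version 2 of the Chromium 3′ chemistry and the study's methods version 3, and the libraries held 4094 and 4847 barcodes. The genes, lists and tests were chosen with earlier results of these data known.

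Cells under 500 detected genes or over 10% mitochondrial UMIs were left out. Scrublet doublets (2.73% and 2.08%) were removed at the threshold of replicate 1, because that of replicate 2 marked 0.0448% of its cells. The kept cells were scaled to 10000 UMIs and clustered (Leiden, 2000 variable genes without 10 pathway genes among them, 30 components, scanpy 1.11.5). A marker was detected in a cluster at 2 times the geometric mean over the clusters or more and in at least 10% of cells. A cluster took the type with the largest share of its markers detected, if these were at least 3. It stayed unnamed when its leading genes held more markers of another type. The same held when it was shallow and none of the type's markers were among its leading genes. Clusters 13 and 22 stayed unnamed and were not compared. Named genes outside the 10 were those of highest level in each list, besides Sp5, Sfrp5 and the WNT ligands called in mesothelial-like cells. UMIs were summed per library and type and tested with edgeR 4.0.16 (R 4.3.3, filterByExpr, TMM, quasi-likelihood). The fits were also run on simulated sums, drawn independently of each other, and the outcome is not given here. The standard error is the log2 fold change over the root of its F statistic.

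Types of one library come from the same pups: deviations of the libraries from the type means correlated between types at 0.132 to 0.442 over 5516 genes. Alternatives were library sizes alone, DESeq2 1.42.0, no filter, the library as a replicate block, cells thinned to 2000 UMIs, each replicate left out, doublets kept, a gate per cell on the rule's markers, a summed reference and other cycling and Amh classes. One was added after the data were seen, without granulosa-like cluster 15. Promoters came from RefSeq (GRCm38.p6).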

Additional observations from a re-analysis of the deposited data

Results flagged for a closer look

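Some of the 10 genes had more than 3 UMIs in both libraries in cells outside the 4 compared types, above what a count of 0 allows there. Of these cells, the endothelial-like and perivascular-like ones entered comparisons only as part of the summed reference. No control samples exist, and none of these levels was tested. In endothelial-like cells Lef1 had a mean of 12.9 CPM (15 and 4 UMIs) and Wnt4 of 10.2 CPM (5 and 6 UMIs). In perivascular-like cells Axin2 and Lgr4 each had a mean of 19.4 CPM (4 and 6 UMIs). In the unnamed cluster 22, of 1 and 15 cells, the means were 402 CPM for Wnt6 (10 and 27 UMIs), 262 CPM for Rspo1 (7 and 16 UMIs) and 115 CPM for Lgr4 (4 and 4 UMIs). That cluster was led by Upk3b and Krt19 and held markers of germ-like cells as well.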

How the results depend on the processing

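With 2 libraries, a single pool of pups sets much of each p-value, and genes with few UMIs (Rnf43, Wnt5a, Lef1) are measured coarsely. Under every alternative with a test, the number of the 10 genes called higher was 4 to 6 in granulosa-like and 6 or 7 in mesothelial-like cells. It was 3 in interstitial-like and 0 in germ-like cells. Calls between pairs of types numbered 41 to 47, against 44. Over all genes, 2479 of 15360 were higher in granulosa-like cells in the main fit and 1624 of 10992 in thinned cells. For mesothelial-like cells these counts were 2077 and 1237. With a replicate left out there were folds only and no test. The granulosa-like log2 fold change of Axin2 was 1.01 without replicate 1 and 0.13 without replicate 2. That of Wnt4 was 0.38 and 1.47. The library as a replicate block gave 47 calls between pairs, 5 between Amh and other granulosa-like clusters and 0 between cycling and non-cycling cells. The calls it added were Rspo1 and Lef1 between granulosa-like and mesothelial-like cells and Lef1 between interstitial-like and germ-like cells. Splitting single cells by Amh or Inhbb UMIs gave 0 calls in place of 5. That split called 54 genes higher and 11 lower of all 11951 tested. Lgr5 in granulosa-like cells went from a log2 fold change of 1.76 to -0.38 against the summed other cells, a reference that counts the mesothelial-like cells by their UMIs. Of 1122 alternative fold changes of single genes, 18 lost and 14 gained a call with the same sign. In 1 more, that of Lgr5 just given, the sign was reversed and the call lost. A further 80 were counted as moved with no change of call, and 13 uncalled fold changes changed sign. All 40 shares of cells with a UMI moved on thinning, and 2 of 40 levels moved by over 1 SD under the per-cell gate.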
